A study of Homo sapiens with 6 samples.

Results

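Subtelomeric bins were the 100 Kb bins of the 22 autosomes that lay wholly within 2 Mb of either chromosome end, counted from the first start and the last end of each chromosome in the score files. Of 880 such bins, 721 had a score other than 0 in all 6 libraries and are the bins described here, out of 26484 autosomal bins with a score in all 6 libraries. They lay on 39 of 44 chromosome ends. The short-arm ends of the acrocentric chromosomes 13, 14, 15, 21 and 22 had no scored bin, and of the 59 other bins without a score 46 began within 200 Kb of the end. The comparison set was the rest of the arm, 25763 scored bins that lay further from the ends.

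The libraries came from T47D, an established line of breast epithelial cancer cells that carry the estrogen receptor. After 72 h of hormone starvation the parental cells were taken without E2 (T0) or after 1, 4, 16 or 24 h in 100 nM E2 (estradiol; T1, T4, T16 and T24). Tamoxifen-resistant T47D cells (TamR) formed the sixth condition. Their labels call them untreated, whereas the methods of the study describe a starved medium with 100 nM tamoxifen, so that drug and resistance cannot be told apart in TamR. Each condition had 1 library of TCC, a form of Hi-C that measures contacts between regions of the genome. No difference between conditions therefore has a replicate check, and no p-value is given. The authors deposited the first eigenvector of the contact matrix as a score per bin, in which a positive value stands for compartment A (active chromatin) and a negative value for compartment B (inactive chromatin). No contact counts are in the files, and the depth of each library is therefore unknown. Scores are scaled within a library, so signs and ranks were compared, a rank being the percentile of a bin among the 26484 autosomal bins of its library. Scores are printed after multiplication by 1000, and a difference in their size between libraries can be one of scale. Intervals are 95% Wilson intervals over bins and are too narrow, since neighbouring bins are not independent.

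Subtelomeres are the stretches of DNA that lie just inside the telomere, the repeat array that protects the chromosome end. They hold blocks that are copied between chromosomes and families of receptor, zinc finger and other clustered genes, and in human chromosomes many of them are rich in genes and in GC. Chromatin close to a telomere can be silenced, and chromosome ends also tend to meet each other in the nucleus. Compartments A and B divide the genome into regions that contact mainly regions of their own kind.

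The palindromic estrogen response element, the site type that estrogen receptor binds best, was searched as GGTCANNNTGACC, which reads the same on both strands. At the ends of 7q and 19q, which carried the longest run of E2 flips and the widest TamR gap described further on, the bins that lay in B at T0 and in A in those libraries held, among others, the matches shown, with the element in capitals and 10 reference bases on each side, from the forward strand of GRCh37 (hg19). The elements lie at chr7:157352904-157352916 and chr7:157622104-157622116, both in introns of PTPRN2, and at chr19:57273581-57273593 and chr19:57477912-57477924, outside protein-coding genes, the first of the 19q pair in an exon of a gene of another type.
7q element 1: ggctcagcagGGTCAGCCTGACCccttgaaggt
7q element 2: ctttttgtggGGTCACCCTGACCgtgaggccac
19q element 1: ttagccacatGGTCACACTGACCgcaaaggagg
19q element 2: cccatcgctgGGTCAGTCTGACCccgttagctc
Such an element occurred in 83 of 721 subtelomeric bins (11.5%, interval 9.38 to 14.1%) and in 1841 of 25763 bins of the rest of the arm (7.15%, 6.84 to 7.47%). Of the 152 subtelomeric bins in B at T0, 9 held one (5.92%). Among the 43 of these that were in A in TamR, 5 did (11.6%, interval 5.07 to 24.5%). Among the 109 that were in B in TamR, 4 did (3.67%, 1.44 to 9.06%). The share was thus higher in the 43 bins, but the counts are small and the intervals overlap. The 43 bins also had a higher median GC content (46.17%) than the 109 (39.95%), and the cause was not tested. A match is a string of letters and not a measured binding site.

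The bases before 3 gene starts in or beside these regions are shown with CpG dinucleotides in capitals, each written in the direction of its gene. They are chr7:158380516-158380765 for PTPRN2, a receptor-type phosphatase of secretory granules, chr19:57352100-57352349 for ZIM2, which starts beside the imprinted gene PEG3, and chr18:904622-904871 for ADCYAP1, which encodes the neuropeptide PACAP.
PTPRN2 250 bases before the start: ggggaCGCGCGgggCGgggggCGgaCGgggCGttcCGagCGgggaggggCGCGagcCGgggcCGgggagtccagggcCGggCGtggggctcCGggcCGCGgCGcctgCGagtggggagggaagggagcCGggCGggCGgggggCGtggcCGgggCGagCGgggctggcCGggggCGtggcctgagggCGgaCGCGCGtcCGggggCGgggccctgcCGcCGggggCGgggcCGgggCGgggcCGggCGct
ZIM2 250 bases before the start: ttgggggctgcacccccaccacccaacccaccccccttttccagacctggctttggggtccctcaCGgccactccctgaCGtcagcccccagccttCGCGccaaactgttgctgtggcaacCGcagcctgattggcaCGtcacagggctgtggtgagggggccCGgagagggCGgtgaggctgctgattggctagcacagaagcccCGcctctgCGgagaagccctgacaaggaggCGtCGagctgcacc
ADCYAP1 250 bases before the start: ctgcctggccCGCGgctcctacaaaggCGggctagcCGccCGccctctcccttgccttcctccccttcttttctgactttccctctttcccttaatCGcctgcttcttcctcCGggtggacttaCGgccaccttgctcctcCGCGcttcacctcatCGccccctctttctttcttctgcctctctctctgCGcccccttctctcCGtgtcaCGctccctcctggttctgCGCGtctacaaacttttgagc
They held 42, 12 and 16 CpG dinucleotides, respectively, against a median of 11 (quartiles 3 and 23) in the same window of 35116 RefSeq promoters of GRCh38.p14. As many as in PTPRN2 were found in 1.38% of those promoters.

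Subtelomeric bins lay mostly in compartment A. At T0, 569 of 721 bins (78.9%, interval 75.8 to 81.7%) were in A, against 11860 of 25763 bins (46.0%, 45.4 to 46.6%) of the rest of the arm. The difference was 32.9 percentage points (interval 29.7 to 35.8). The subtelomeric share was 79.2% at T1, 79.9% at T4, 80.6% at T16, 79.9% at T24 and 83.9% in TamR, and that of the rest of the arm lay between 43.8 and 47.3% in the 6 libraries. The median rank of the subtelomeric bins was 86.7 at T0, 88.6 at T24 and 89.4 in TamR. In all, 558 subtelomeric bins (77.4%) were in A in every library and 107 (14.8%) were in B in every library.

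Over the first 7 Mb the share of A was mostly lower with distance from the end. At T0 it was 88.5% in the outermost 0.5 Mb (165 bins), 85.8% from 0.5 to 1 Mb, 71.0% from 1 to 1.5 Mb and 71.3% from 1.5 to 2 Mb. Further in, it was 69.2% from 2 to 2.5 Mb, 60.3% from 4.5 to 5 Mb and 49.7% from 6.5 to 7 Mb, so that the window had no sharp inner border. Beyond that the decline did not go on, with 46.3% from 7 to 7.5 Mb and 61.3% from 9 to 9.5 Mb. In TamR the share was higher than at T0 in every step of 0.5 Mb out to 4 Mb, with 93.3% in the outermost step.

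**Figure D1:**
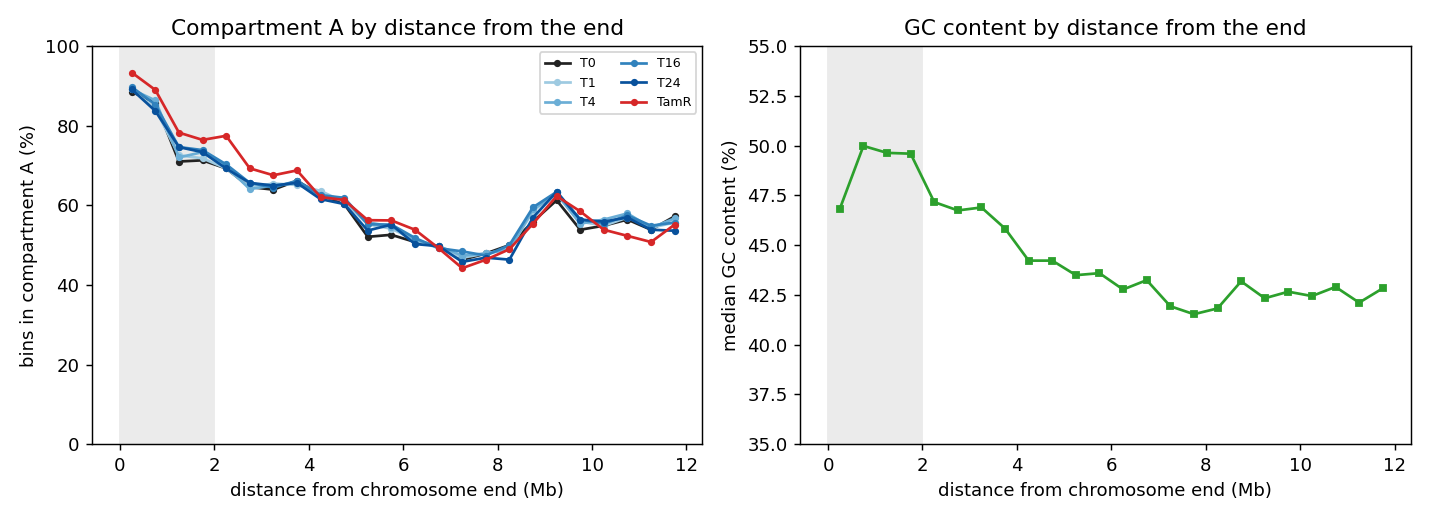
The left panel plots the percentage of scored bins in compartment A against distance from the chromosome end (Mb, steps of 0.5 Mb) in the 6 libraries, and the right panel the median GC content of the same bins (%). The grey band marks the outer 2 Mb. The T0 share goes from 88.5% in the outermost step to 49.7% between 6.5 and 7 Mb and is higher again at 61.3% between 9 and 9.5 Mb. The curves of the 5 parental libraries nearly overlie each other.

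Composition differed along with the compartment. Subtelomeric bins had a median GC content of 49.1%, 1.67 protein-coding gene starts per bin and 21.8 CpG dinucleotides per Kb, and the rest of the arm 39.7%, 0.685 and 9.60. Within the subtelomeres the 569 bins in A at T0 had 51.2% GC and 1.96 gene starts per bin, and the 152 bins in B had 42.2% and 0.566. When the rest of the arm was weighted to the GC content of the subtelomeric bins (20 strata, chosen after seeing the data), its share of A was 81.4% at T0 and 81.9% in TamR, beside 78.9 and 83.9% in the subtelomeric bins. The excess of A over the rest of the arm was thus not present at like GC at T0. Whether GC content or the place at the end set the compartment was not tested.

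At 22 of the 39 ends, holding 402 bins, every scored bin was in A in all 6 libraries, namely 1p, 2q, 3q, 4p, 5q, 6p, 7p, 8q, 9q, 11p, 12p, 12q, 13q, 16p, 16q, 17p, 17q, 19p, 20p, 20q, 21q and 22q. At T0 the end had a higher share of A than the rest of its own arm at 32 of 39 ends, and at 35 in TamR. The T0 contrast within an arm was large at 5p, where 19 of 20 end bins but 19.6% of the rest of the arm were in A, and at 8q with 17 of 17 bins against 29.2%.

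A set of 7 ends had at most 50% of their bins in A at T0. No bin was in A at 1q (17 bins), 3p (19 bins) or 4q (18 bins), and the others were 11q (3 of 18), 8p (4 of 19), 9p (7 of 18) and 18p (8 of 20). Their median GC content lay between 36.6% (3p) and 47.3% (8p), but not all of them were poor in genes. The 1q end held 56 protein-coding gene starts in 17 bins, of which 45 were olfactory receptor genes, whereas the 3p and 4q ends held 2 each. In the rest of the same arms 28.9 to 49.4% of bins were in A at T0.

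**Figure D2:**
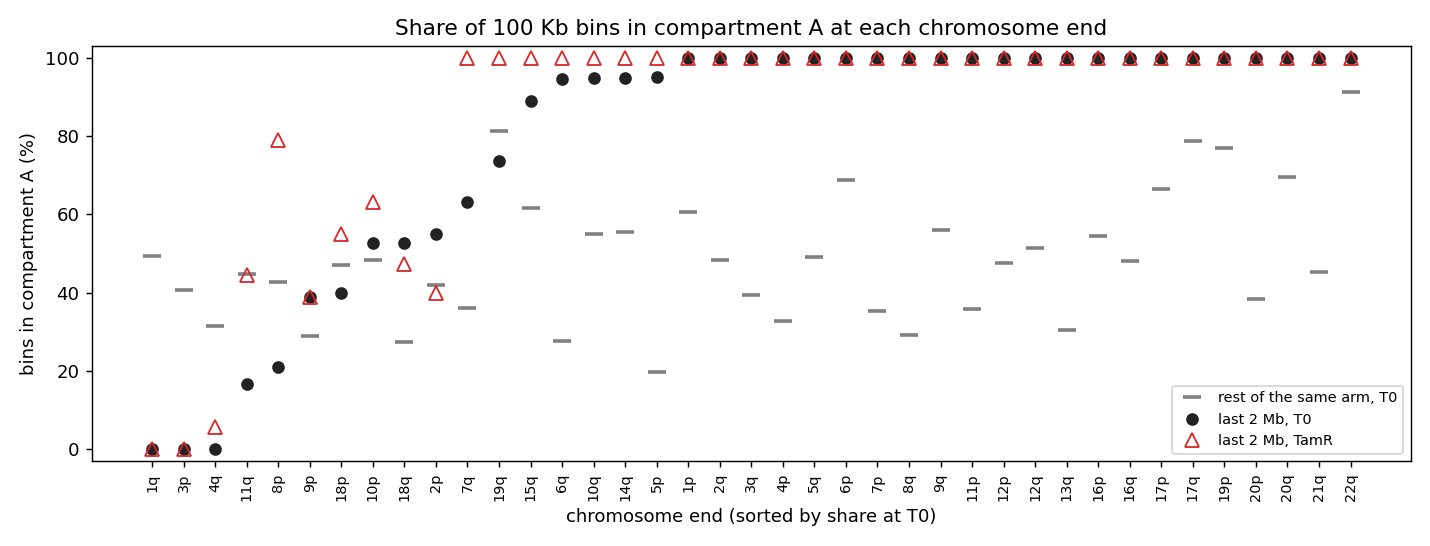
The percentage of scored bins in compartment A in the last 2 Mb is plotted for each of 39 chromosome ends at T0 (black circles) and in TamR (red open triangles), with the rest of the same arm at T0 (grey dashes). The 22 ends at the right hold only A bins in both libraries, and 7q, 8p, 11q and 19q show the widest gaps between T0 and TamR.

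The E2 course left most of these bins where they were. Off their T0 compartment were 12 of 721 bins at T1 (1.66%, against 3.12% of all autosomal bins), 13 at T4 (1.80%, against 3.00%), 20 at T16 (2.77%, against 3.80%) and 21 at T24 (2.91%, against 5.17%). At 1 or more E2 times 27 bins (3.75%, interval 2.59 to 5.39%) were off the T0 compartment, against 7.04% of all autosomal bins and 7.13% of the rest of the arm. The difference from the rest of the arm was -3.39 percentage points (interval -4.59 to -1.71). At like GC content the rest of the arm had 3.84%, so that the difference was no longer present there.

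At T24 more subtelomeric bins had entered A than had left it, a net gain that came from 7q. Of the 152 subtelomeric bins in B at T0, 14 were in A at T24 (9.21%, interval 5.57 to 14.9%), against 2.86% of all autosomal B bins and 2.79% (2.53 to 3.08%) of those in the rest of the arm. Of the 569 bins in A at T0, 7 were in B at T24 (1.23%, 0.597 to 2.52%), against 7.77% of all autosomal A bins and 8.09% of those in the rest of the arm. Without 7q, chosen after seeing the data, 7 of 145 B bins (4.83%, interval 2.36 to 9.63%) were in A and 7 A bins were in B, so that no net gain was left. By rank, 491 of 721 subtelomeric bins (68.1%) stood higher at T24 than at T0, and 45.4% of the rest of the arm did. The median rank difference at T24 was positive at 31 of 39 ends, and at 27 it was above that of the rest of the same arm.

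Few bins were flipped at all 4 E2 times. Bins that were in B at T0 and in A at T1, T4, T16 and T24 numbered 6 (0.832%, against 0.634% of all autosomal bins). They lay at 7q (3 bins), 15q (2) and 14q (1), and only 1 run had 2 adjacent bins, chr7:157600001-157800000. The opposite flip, from A to B, was found in 2 bins (0.277%, against 0.785%). Of these, 1 lay at 8p over FBXO25 and TDRP and 1 at 18p over ENOSF1 and YES1. Both of these had T0 scores within 0.274 of 0. The flips from B to A also began near 0, with T0 scores of -0.0140 at 14q and -0.272 and -0.325 at 15q. At 7q the T0 score was -0.518 in the single bin and had a mean of -0.376 in the run. The remaining 19 bins were off T0 at 1 to 3 E2 times and formed 12 runs.

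The 7q end had more bins in A at each E2 time up to T16. Its bins in A numbered 12 of 19 at T0, 15 at T1, 17 at T4 and 19 at T16, T24 and in TamR. The median score there was 0.724 at T0, 1.10 at T1, 1.56 at T4, 2.65 at T16, 3.16 at T24 and 3.60 in TamR. All 19 bins ranked higher at T24 than at T0, with a median rank difference of 11.2 points, while the rest of 7q had -1.63. The 7 bins that were in B at T0 lay between 157300001 and 158200000 and overlapped the gene body of PTPRN2 (chr7:157331750-158380515, reverse strand).

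The bins of the 7q flips had small scores at every step. The bin chr7:157300001-157400000, with element 1 in it, had -0.518 at T0, 1.10 at T1, 1.72 at T4, 2.65 at T16, 3.52 at T24 and 3.60 in TamR. The bin chr7:157600001-157700000, with element 2, had -0.487 at T0, 0.0504 at T1, 0.889 at T4, 1.96 at T16, 1.59 at T24 and 0.710 in TamR. Both passed 0 by T1, and the scores of the first were larger with each later time. The 4 adjacent bins from 157800001 to 158200000 had mean scores of -0.785 at T0, -0.868 at T1, -0.196 at T4, 1.11 at T16, 1.28 at T24 and 1.80 in TamR, so that their mean passed 0 between T4 and T16. The bin of the PTPRN2 start was in A at T0 (1.47) and stood at 4.37 at T24. With 1 library at each time, a course in time and differences between libraries cannot be told apart.

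**Figure D3:**
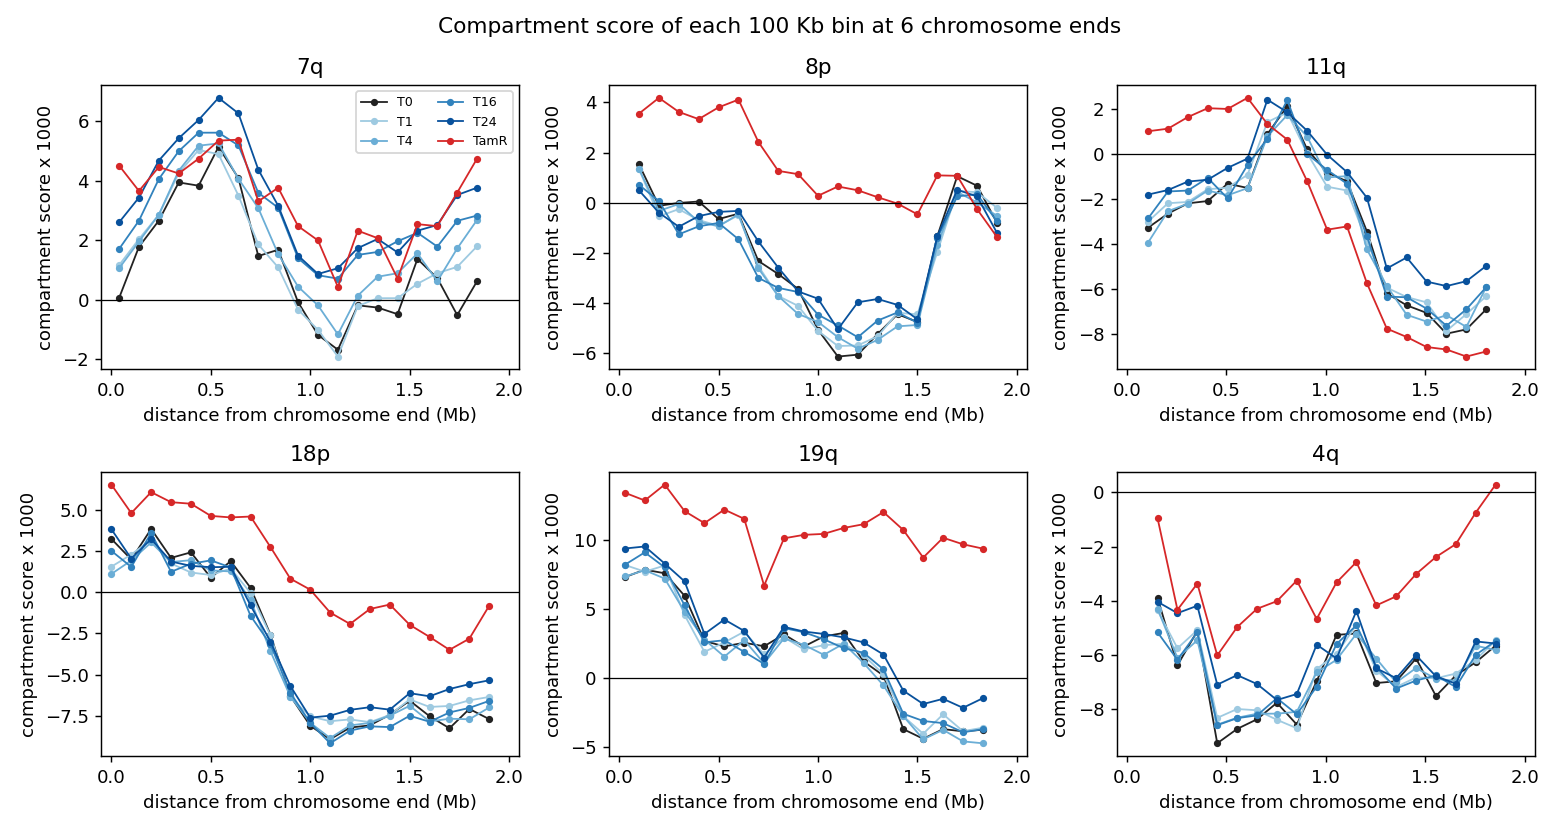
The compartment score (multiplied by 1000) of every scored bin is plotted against distance from the chromosome end (Mb) for 6 ends, with 1 line per library and a line at 0 between compartments A and B. At 7q the lines of T16, T24 and TamR lie above that of T0 over the whole window, at 8p, 18p, 19q and 4q the TamR line lies apart from the 5 parental lines over most bins, and at 11q it is higher near the end and lower further in.

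In TamR the difference from T0 at the subtelomeres consisted mostly of B bins that lay in A. Another compartment than at T0 was found in 50 of 721 bins (6.93%, interval 5.30 to 9.03%), against 13.8% of all autosomal bins and 14.0% (13.5 to 14.4%) of the rest of the arm, a difference of -7.03 percentage points (-8.73 to -4.90). Of these, 43 went from B to A and 7 from A to B, while the rest of the arm had 1960 and 1639. Of the 152 bins in B at T0, 28.3% (21.7 to 35.9%) were in A, against 14.3% of all autosomal B bins and 14.1% (13.5 to 14.7%) of those in the rest of the arm. Of the 569 bins in A at T0, 1.23% (0.597 to 2.52%) were in B, against 13.2% of all autosomal A bins and 13.8% (13.2 to 14.4%) of those in the rest of the arm.

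Both shares were set beside bins of the rest of the arm with like T0 rank or like GC content. Weighted to the T0 ranks of the subtelomeric B bins, the rest of the arm had 14.2% of its B bins in A in TamR, and weighted to their GC content 22.3%, beside 28.3% at the ends. For the A bins the weighted shares in B were 6.44% by T0 rank and 4.15% by GC content, beside 1.23%. The overall share of bins off their T0 compartment was 7.47% in the rest of the arm at like GC, beside 6.93% in the subtelomeric bins.

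**Figure D4:**
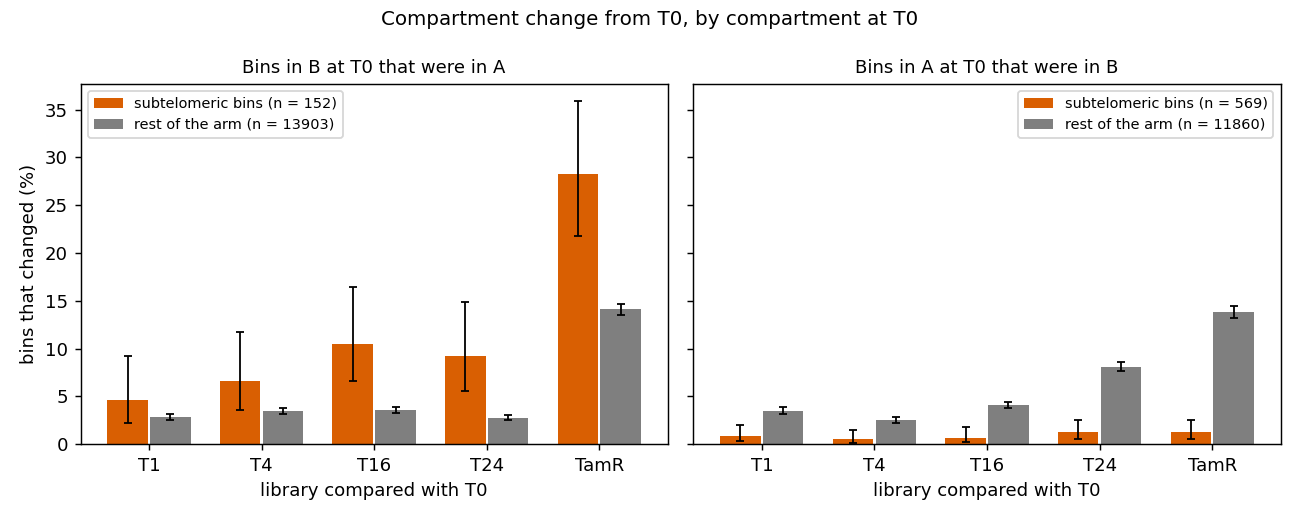
Bars give the percentage of bins that left their T0 compartment in each library, for bins in B at T0 (left) and in A at T0 (right), in the subtelomeric bins and in the rest of the arm, with 95% Wilson intervals over bins. In TamR 28.3% of subtelomeric B bins were in A against 14.1% in the rest of the arm, and 1.23% of subtelomeric A bins were in B against 13.8%.

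Ranks need no border at 0. The median rank difference between TamR and T0 was 0.88 points in the subtelomeric bins and -0.82 in the rest of the arm. Among bins with a T0 rank up to 20, it was 14.3 points in 71 subtelomeric bins from 8 ends, of which 91.5% stood higher in TamR, and 3.99 in the rest of the arm, with 66.9% higher. Between ranks 40 and 60 it was 8.19 points in 85 subtelomeric bins and -3.37 in the rest of the arm, and above rank 80 it was -0.07 and -1.14. The gap between both sets was thus wide at low and middle ranks and narrow at the top, where 407 of the 721 subtelomeric bins lay.

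**Figure D5:**
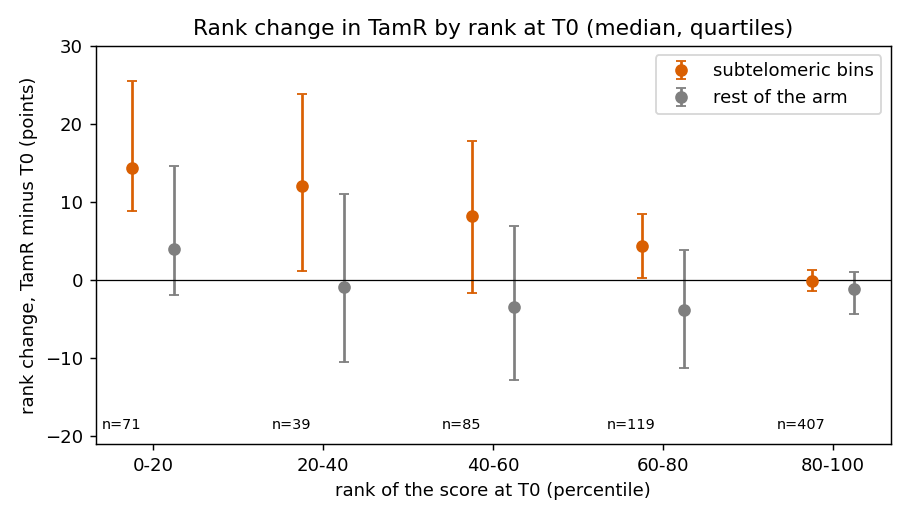
The rank difference between TamR and T0 (percentile points, median with lower and upper quartile) is plotted by T0 rank band for subtelomeric bins (orange) and the rest of the arm (grey), with the number of subtelomeric bins below. The subtelomeric medians are 14.3, 12.1, 8.19, 4.37 and -0.07 from the lowest band to the highest, each above that of the rest of the arm.

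The bins that went to A were unevenly spread over the ends. Compared with T0, TamR had more A bins at 12 ends, fewer at 2 (2p and 18q) and as many at 25. A net difference of 4 or more bins was found at 8p (4 to 15 of 19), 7q (12 to 19 of 19), 11q (3 to 8 of 18) and 19q (14 to 19 of 19), which together held 30 of the 43 bins that went from B to A. Without these 4 ends, which were picked for this difference, 13 of 110 B bins (11.8%, interval 7.04 to 19.2%) were in A in TamR, so that the excess over the rest of the arm was not present. Without 8p alone the share was 22.6% (16.4 to 30.3%), and without 7q alone 24.8%. At 7q the difference was already there at T16 and T24. By the median rank difference, 23 of 39 ends stood above the rest of their own arm in TamR.

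Bins with B throughout the 5 parental libraries and A in TamR numbered 28 (3.88%, against 6.0% of all autosomal bins), in 8 runs at 6 ends. Far fewer subtelomeric bins lay in B, and of the 135 that did so in all 5 parental libraries these 28 were 20.7% (interval 14.8 to 28.3%), against 12% of such autosomal bins and 11.9% (11.4 to 12.5%) of those in the rest of the arm. The reverse, A in the parental libraries and B in TamR, was found in 1 bin (0.139%, against 3.95%, and 0.179% of 559 bins with A in all 5, against 9.20%), at 8p over ARHGEF10 with scores of 0.681 at T0 and -0.251 in TamR. The 5 longest runs toward A lay at 8p, 11q, 19q, 18p and 10p.

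The longest run was chr8:500001-1400000, 9 bins at 8p. Its mean score was -3.57 at T0, -3.73 at T1, -3.72 at T4, -3.51 at T16, -2.78 at T24 and 1.60 in TamR. The parental libraries lay close together and TamR apart, and the median rank was 34.9 at T0 and 57.9 in TamR. ERICH1, a glutamate-rich protein, and DLGAP2, a scaffold protein of the postsynaptic density, start in the run, and DLGAP2 spans 8 of its 9 bins.

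The run at 11q was chr11:134300001-134900000, 6 bins without a protein-coding gene start. Its mean score was -2.17 at T0, -1.89 at T1, -2.28 at T4, -1.62 at T16, -1.10 at T24 and 1.71 in TamR. The 11q end differed in both directions, since the 9 bins that stayed in B, between 133100001 and 134000000, had a mean score of -5.35 at T0 and -7.02 in TamR, and none of them ranked higher in TamR. OPCML, an opioid-binding cell adhesion molecule, starts among these (-7.05 at T0, -8.57 in TamR). So 5 more bins were in A, and yet the median rank difference of the end was -5.99 points.

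The run at 19q had the widest gap of the 5. In chr19:57200001-57700000 (5 bins), the mean score was -3.91 at T0, -3.40 at T1, -4.08 at T4, -3.35 at T16, -1.61 at T24 and 9.71 in TamR, and the median rank was 33.0 at T0 and 92.3 in TamR. PEG3 and ZIM2 (zinc finger genes, PEG3 being imprinted and active from the paternal copy), USP29 (a ubiquitin peptidase), ZIM3 (a zinc finger repressor) and DUXA (a double homeobox gene) start there. The bins of the 2 elements shown above were negative in the parental libraries and had 9.35 and 10.1 in TamR. The bin of PEG3 and ZIM2 itself held no such element and had scores of -2.18 at T24 and 9.67 in TamR. The gap went on beyond the run, as all 19 bins of the end ranked higher in TamR than at T0, with median scores of 2.28 at T0 and 10.9 in TamR. The rest of 19q had a median rank difference of 1.50 points, but its median rank was already 85.1 at T0 (93.2 in TamR). Its share of A was 81.4% at T0 and 86.4% in TamR, and that of the rest of 19p was 76.9 and 97.3%. More A in TamR was thus not particular to this end of chromosome 19.

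The run at 18p, chr18:800001-1100000 (3 bins), had mean scores of -5.66 at T0, -5.51 at T1, -5.95 at T4, -5.73 at T16, -5.43 at T24 and 1.25 in TamR. YES1, a Src-family tyrosine kinase, and ADCYAP1 start there. All 20 bins of the 18p end ranked higher in TamR than at T0, by a median of 26.5 points, although the number of A bins differed only between 8 and 11. The 9 bins that stayed in B further in had a mean score of -7.76 at T0 and -1.86 in TamR. The run at 10p, chr10:1100001-1300000 (2 bins over WDR37 and the 3' part of ADARB2), had mean scores of -1.79 at T0, -1.78 at T1, -1.67 at T4, -2.19 at T16, -1.15 at T24 and 1.88 in TamR.

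The 3 ends that had no A bin at T0 also stood higher in TamR while staying in B. The median score at 4q was -6.86 at T0, -6.31 at T24 and -3.34 in TamR, and all 18 bins ranked higher in TamR, with 1 bin in A. At 3p it was -8.28 at T0, -7.58 at T24 and -7.22 in TamR, with all 19 bins higher by rank. At 1q it was -7.58 at T0, -6.82 at T24 and -6.23 in TamR, with 16 of 17 bins higher by rank. The rest of these arms had median rank differences of -4.06 (4q), 1.18 (3p) and -4.29 (1q). Its median rank at T0 was far above that of the end in each case, so this contrast is not one at like T0 rank. Over all arms, bins of the rest of the arm with a T0 rank up to 20 stood higher in TamR too. Their median rank difference was 3.99 points, with 66.9% higher. A comparison at like T0 rank was not made for each end. At T24, 5 of 17 bins at 1q, 8 of 19 at 3p and 11 of 18 at 4q ranked higher than at T0. The median rank differences at T24 were -0.687 (1q), -0.159 (3p) and 2.53 (4q). The T24 scores nearer to 0 at 1q and 3p thus had no rise in the rank of most bins beside them. The median rank of the end was nevertheless higher at T24, 9.91 against 7.12 at 1q and 2.85 against 2.58 at 3p.

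Protein-coding genes that start in subtelomeric bins were in A even more often than the bins. Of 1202 such genes, 92.9% lay in an A bin at T0 and 93.6% in TamR, with 13 genes going from B to A and 4 from A to B, against 77.5 and 78.0% of 17660 genes in the rest of the arm. Thus 1.41% of these genes lay in another compartment in TamR than at T0, against 9.95% in the rest of the arm. These gene shares were not weighted to GC content or T0 rank. For bins, the difference in this share from the rest of the arm was -0.539 points at like GC and -1.14 at like T0 rank. The genes of 1 cluster often share a bin and then share its values.

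As most subtelomeric genes were in A, the lists with every gene in A lie near that share and show nothing particular to them. The estrogen and breast list had all 8 of its genes in A in every library, beside 92.9% of all subtelomeric genes at T0. CTSD, which encodes the estrogen-induced protease cathepsin D, had bin scores of 12.5 at T0, 14.3 at T1, 12.3 at T4, 12.5 at T16, 14.4 at T24 and 10.8 in TamR, and a rank of 97.1 at T0 and 94.7 in TamR. GPER1, the membrane estrogen receptor, had ranks of 99.1 at T0 and 99.4 in TamR, FASN, the fatty acid synthase, 99.6 and 98.0, and PTK6, the breast tumor kinase, 99.9 and 99.5. The lowest rank of the list at T0 was that of AHRR, the repressor of the aryl hydrocarbon receptor (86.3, and 87.0 in TamR). Both telomere maintenance genes were in A in every library. TERT, the catalytic subunit of telomerase, had 5.08 at T0, 6.09 at T1, 6.31 at T4, 6.84 at T16, 7.06 at T24 and 7.21 in TamR, with a rank of 77.4 at T0 and 85.8 in TamR, and RTEL1, a helicase that resolves telomere loops, had 13.8 at T0 and 15.1 in TamR.

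Of the 14 cancer genes listed, 13 start in a scored subtelomeric bin, and all 13 were in A in every library, beside 92.9% of all subtelomeric genes at T0 and 93.6% in TamR. The ranks of 11 of them at T0 lay between 85.8 (CHFR, a mitotic checkpoint ligase) and 99.9 (FANCA, of the Fanconi anemia complex). The other 2 were TYMS, thymidylate synthase, at 18p (rank 62.6 at T0 and 75.1 in TamR), and IRF4, a lymphoid transcription factor, at 6p (55.4 and 76.7). NOTCH1, the receptor at 9q, had ranks of 99.8 and 100.0, and HRAS, the small GTPase at 11p, 94.9 and 88.5.

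Gene families of single ends had the compartment of their end. The families named first lie at ends where every scored bin was in A in all 6 libraries. Any gene there would be in A, and their compartment shows nothing particular to them. The 4 mucin genes of 11p15.5, the 5 alpha-globin genes of 16p13.3, 3 forkhead genes of 6p25.3, 5 beta-defensin genes of 20p13, 7 zinc finger genes of 12q24.33, 5 of 4p16.3 and 3 butyrophilin-like genes of 5q35.3 were in A in all 6 libraries. The alpha-globins are the oxygen carrier genes of red blood cells, and their bins ranked 99.6 or higher at T0. MUC5AC, a gel-forming mucin, had a rank of 96.1 at T0 and 84.8 in TamR. The defensin bins had ranks of 73.3 and 86.9 at T0 and 92.2 and 94.7 in TamR.

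The olfactory receptors of 1q lie at an end that had no A bin in any library, so their compartment was that of the end. All 45, in 13 bins, were in B in all 6 libraries, with a median rank of 4.48 at T0 and 15.4 in TamR. The 43 genes of the 19q end whose symbols begin with ZNF, a list without PEG3, ZIM2 and ZIM3 of the run in B at T0, were in A at T0 and in TamR, with a median rank of 68.2 at T0 and 95.5 in TamR, and at T4 40 of them were in A. Of the 9 neural genes, 8 start in a scored subtelomeric bin, 1 of them in A at T0 (PTPRN2) and 2 in TamR (PTPRN2 and DLGAP2). CHL1 and CNTN6, neural adhesion molecules at 3p, had scores of -8.89 and -8.17 at T0 and -6.84 and -6.83 in TamR. ADARB2, a brain relative of the RNA-editing enzymes at 10p, had -7.51 and -4.17, while SNTG2, a syntrophin at 2p, had -1.15 and -1.17.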

How the data were processed

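TCC compartments were analysed in 5 parental T47D libraries and 1 of TamR. For 100 Kb bins of hg19 the authors deposited a compartment score each, computed with HiCLib as the leading eigenvector of corrected contacts between chromosomes. Per the methods of the study, reads were aligned iteratively and low-coverage bins were removed, and a deposited score of 0 was taken as no value. Whether replicate cultures were pooled for T47D is not given in the sources used here.

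The sign of the score gave the compartment, with 0 as the border and signs as deposited. The arms were divided at the longest run of bins without a score. Base composition, motifs and sequences were read from GRCh37 and gene starts from a GENCODE annotation mapped to it. All 22 autosomes have the same length there as in the bins. Shares carry Wilson intervals, and differences of shares intervals combined from these. Python 3.11.15, numpy 2.4.6, pandas 2.3.3, scipy 1.17.1 and matplotlib were used. The computations were tested on simulated data with planted shares and flips.

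Named were the ends with at most 50% or all bins in A, those with a net difference of 4 or more A bins, up to 5 longest runs per direction with up to 5 gene starts, and genes of the lists. The bins, the gene lists and the rule were chosen with earlier results of these data known. The sequences of 7q, 18p and 19q, the ends 5p and 8q and genes beside counts of single bins were picked after their values were seen. The shares over bins with 1 compartment in all parental libraries were also added after seeing the data. Alternatives were other windows, borders, bin sizes, comparison sets, references and weights, and single chromosomes and E2 libraries left out.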

Additional observations from a re-analysis of the deposited data

How the results depend on the processing

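The settings were changed one at a time. Within 1 Mb of the ends, A held 87.1% of bins at T0 and 91.6% in TamR, 40.7 and 43.9 percentage points above the rest of the arm, and the median rank difference between TamR and T0 was 1.41. Within 4 Mb the shares were 72.2 and 77.3%, the differences 26.8 and 30.8 points, and 9.51% of bins were off T0 in TamR, -4.53 points from the rest of the arm. With the border at the median of each library that last difference was -9.03 points. With weak scores left out, A held 82.7% at T0 (difference 37.6 points), 0% of bins were off T0 in E2 (-0.0151 points) and 2.36% in TamR (-3.38 points). This filter removes most sign changes by construction. In 500 Kb bins the TamR excess of A was 39.4 points, and with equal weight of the ends 32.7 points with a rank difference of 3.63.

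Against bins 2 to 4 Mb from the same end the excess of A was 12.9 points at T0 and 12.8 in TamR, and the difference in the share off T0 in E2 reversed to 0.252 points. Weighted to T0 rank, which sets the T0 share by construction, the differences were -0.0596 points at T0, 7.09 in TamR, -1.22 for E2 and -1.14 for TamR against T0. Weighted to GC content, chosen after seeing the data, they were -2.45, 1.99, -0.0916 and -0.539 points. Without the T24 library the E2 difference was -1.61 points. Leaving out chromosomes in turn gave TamR excesses of A from 34.6 (without chromosome 5) to 39.4 points (without chromosome 1). Without the ends 7q, 8p, 11q and 19q, chosen after seeing the data, A held 83.0% at T0 (36.9 points), 2.48% were off T0 in E2 (-4.65 points) and 2.79% in TamR (-11.2 points). The cause was not tested where not stated. Of 113 values under these settings, 73 stayed within the interval of the reported value.

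No paired analysis was possible because only 1 library represents a condition. Neither the spread between cultures nor the counting error of a score is given, as the files hold no second library and no contact counts.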

Other observations

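Chromosome X was outside the choice of bins. Of 20 bins in the last 2 Mb of Xq, 17 had a score in all 6 libraries, and all 17 were in A in each of them. None of the 20 bins at the Xp end had a score in all 6 libraries.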
